A study of Mus musculus with 4 samples.

Results

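Enteroendocrine cells are the scattered hormone-secreting cells of the gut epithelium. They arise from the same crypt stem cells as enterocytes, store peptide hormones in dense-core granules and release them when nutrients reach the lumen. Their hormone mix depends on the position along the gut: Cck, Gip and Sct are typical of the duodenum and jejunum, Gcg, Pyy and Nts become more frequent toward the ileum, and Sst and Tac1 are made along the whole gut. The granins Chga and Chgb are acidic proteins of the granules themselves and mark these cells whichever hormone they make.

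The 10 genes described here are those 8 hormone genes and the 2 granin genes, chosen by name from the 55487 genes of the count and TPM tables, and all 10 passed the filter on low counts that left 17155 genes for testing. The cultures were mouse small intestinal (SI) organoids, epithelial structures grown from crypts. They had been infected with a lentivirus for a miRNA mimic control (2 libraries, replicates 1 and 2) or for a miR-181a-5p mimic (2 libraries, replicates 3 and 4), and puromycin at 2 μg/ml selected the infected cells in both groups. The tables hold mRNA, so the level of the mature miRNA was not analysed here, and neither the labels nor the methods state a mouse strain, sex or age for these cultures, the segment of the SI they came from, or if each library is a separate infection. The p-values therefore measure the spread between libraries, which may be technical. In bulk RNA, fewer cells of a type and less RNA per cell cannot be told apart.

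The libraries held between 31104884 and 38111731 expected counts, which are estimated numbers of reads per gene. All 8 epithelial markers passed the filter, led by Epcam at 645 TPM and Krt8 at 617 TPM (a transcript level corrected for length and depth, mean of 4 libraries). Markers of other sources of peptide hormone mRNA were low. The islet genes Ins1 and Ins2 and the enteric neuron gene Vip had 0 counts in every library, and the 9 neuron and glia genes summed to between 6.39 and 6.68 TPM in the controls and between 7.65 and 8.29 TPM with the mimic. Of those 9, Ret (4.86 TPM) and Tubb3 (0.765 TPM) were the most abundant, and the glial gene S100b was lower with the mimic (log2 fold change -2.72, SE 0.495, adjusted p = 0.0365, edgeR's quasi-likelihood test) at between 4 and 59 counts, a call that was lost without control replicate 1 (adjusted p = 0.0941) and without mimic replicate 4 (adjusted p = 0.0599). The 7 mesenchymal, endothelial and immune genes summed to at most 0.72 TPM in any library, with Pecam1 (0.215 TPM) and Acta2 (0.208 TPM) in front, and Col1a2 and Col3a1 were at 0.

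The sequence of the delivered miRNA is shown first, because it fixes which transcripts carry a seed match. Mature mmu-miR-181a-5p (RefSeq, GRCm38.p6) is encoded at chr1:137966468-137966490 (plus strand, Mir181a-1) and again at chr2:38852741-38852763 (plus strand, Mir181a-2). The capitals mark the seed, bases 2 to 8.
mmu-miR-181a-5p: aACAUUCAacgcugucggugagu

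Among the 10 genes, 3′ UTRs ran from 115 to 575 bases, against a median of 1088 bases over 21068 genes (longest annotated 3′ UTR per gene). Chga alone of the 10 held the 7-base match TGAATGT, and Tac1 alone held the 6-base match GAATGT without the longer one. The match in Tac1 was followed by an A and that in Chga was not. GAATGT with this A is a further form of seed match, which was not counted over all genes. Both stretches are shown 5′ to 3′ with the match in capitals, Chga from chr12:102564832-102564861 (plus strand) and Tac1 from chr6:7562950-7562977 (plus strand), both on GRCm38. The 6 bases GAATGT begin at base 151 of a 335-base 3′ UTR in Chga and at base 530 of 545 in Tac1.
Chga: cagggcagcccTGAATGTcagcacagattc
Tac1: ttttaaataaaaGAATGTatcttcagga
Of 5536 genes with a 3′ UTR in the length range of the 10, 3.41% held the 7-base match and 9.75% the 6-base match, and over all genes the shares were 17.0% and 34.3%. No 3′ UTR of the other 8 genes held either match. The match is a string of letters in an annotated UTR and not a measured binding site.

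The main question was whether hormone mRNA differed between the mimic and its control, and whether proximal and distal hormones differed alike. By edgeR's quasi-likelihood test, 0 of the 10 genes passed an adjusted p of 0.05, where 1.21% of all tested genes were called higher and 2.17% lower with the mimic. At an unadjusted p under 0.05, 4 of the 10 were higher with the mimic (Sct, Gcg, Pyy and Nts) and none lower, beside 11.8% of all genes higher. The same 4 were the genes whose mimic libraries both lay above both controls in normalized CPM (counts scaled to a common library size after TMM correction), an arrangement found in 28.9% of all genes. All 3 distal hormones were among those 4, and of the proximal hormones Sct was. The median log2 fold change was 1.77 over the 3 distal hormones, 0.53 over the 3 proximal hormones, 0.45 over the 10 genes and -0.01 over all tested genes. A median of 3 genes is the value of a single gene, here Nts for the distal and Gip for the proximal hormones. Pyy (1.79) and Nts lay above the proximal hormone Sct (1.10), and Gcg (0.78) lay below it. No test was made of these medians, and an exact permutation test on 4 libraries in groups of 2 has a smallest p of 0.333 for any gene.

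The calls depended on the test. edgeR's exact test (4.44% of all genes higher) and its likelihood-ratio test (4.62%) each called the 4 genes Sct, Gcg, Pyy and Nts higher. DESeq2 (4.18%) called Gcg and Nts. The quasi-likelihood test without a filter on low counts (4.35%) called 6, adding Chga and Gip to those 4. There Gip had an adjusted p of 0.0055, although its mimic libraries (41.4 and 16.2 normalized CPM) lay on either side of both controls (20.1 and 19.8). For Gip this p-value was small beside the spread between libraries, so calls of the unfiltered fit carry less weight. Single libraries also decided calls. Gcg and Nts were called higher without control replicate 1 (background 1.16%), Chga and Gip without mimic replicate 4 (1.55%), whereas Chgb and Cck were called lower without control replicate 2 (5.51%), and no member was called without mimic replicate 3.

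**Figure D1:**
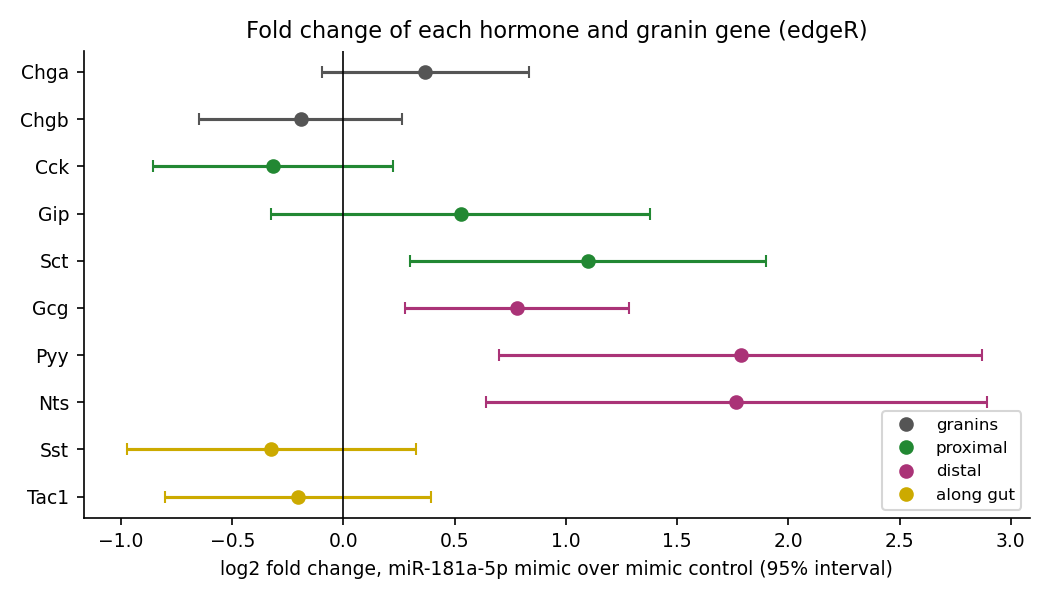
Log2 fold change of each gene (x axis, mimic over control, edgeR's quasi-likelihood fit on 2 against 2 libraries) with its 95% interval as a bar, coloured by the region where the hormone is typically made. The intervals of Sct, Gcg, Pyy and Nts lie above 0 and those of the other 6 genes cross it, before any adjustment for the number of genes tested.

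In length-normalized level, Chgb was highest with a mean of 159 TPM over the 4 libraries (range 130 to 202), followed by Cck at 69.0 TPM (56.6 to 93.7), Gip at 54.1 TPM (39.4 to 89.8) and Gcg at 49.6 TPM (27.5 to 63.8). Chga (29.3 TPM, 22.4 to 39.3) and Tac1 (20.3 TPM, 15.04 to 27.2) were next, and Sst stood at 6.95 TPM (5.07 to 7.78). Lowest were Sct at 3.21 TPM (1.54 to 4.53), Nts at 2.08 TPM (0.40 to 3.32) and Pyy at 1.87 TPM (0.60 to 3.88). Neighbours in this order overlapped in range except at 3 steps: Chgb was above Cck, Tac1 above Sst and Sst above Sct in every library of either gene.

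**Figure D2:**
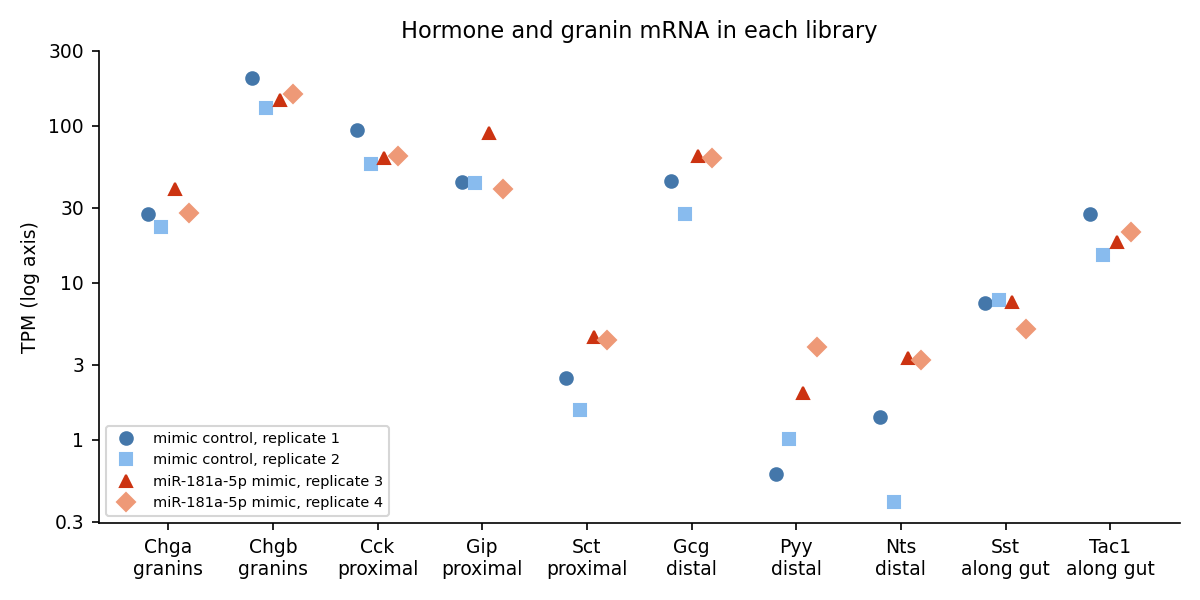
TPM (y axis, log scale) of each gene in each of the 4 libraries, with 1 point per library. Both mimic libraries (red) lie above both controls (blue) for Sct, Gcg, Pyy and Nts and also for Chga in TPM (39.3 and 27.9 against 27.5 and 22.4), and Chgb, Cck and Tac1 are highest in control replicate 1.

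Gcg encodes proglucagon, from which L cells cut glucagon-like peptides 1 and 2 (chr2:62474530-62483650, minus strand). Its normalized CPM was 35.3 and 21.3 in control replicates 1 and 2 and 51.6 and 45.7 in mimic replicates 3 and 4. The lower mimic library exceeded the higher control, and the controls lay farther apart than the mimic libraries. The means were 28.3 ± 9.92 (SD, n = 2) and 48.7 ± 4.17 (SD, n = 2). The log2 fold change was 0.78 (SE 0.216, 95% interval 0.28 to 1.29), a 1.72-fold difference, with an adjusted p of 0.0915 from edgeR's quasi-likelihood test. Leaving out each library in turn moved it between 0.47 and 1.19.

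Pyy encodes peptide YY, the satiety and ileal brake hormone that L cells release together with the glucagon-like peptides (chr11:102106676-102107832, minus strand). Only 9 and 12 counts were assigned to it in the controls, against 24 and 48 with the mimic. On the normalized CPM scale these were 0.235 and 0.387 against 0.766 and 1.35, so the groups did not overlap at a level near the lower end of what was tested. The log2 fold change was 1.79 (SE 0.465, 95% interval 0.70 to 2.87), a 3.45-fold difference, and the adjusted p was 0.0815 in edgeR's quasi-likelihood test. Without 1 library it ranged from 1.31 (mimic replicate 4 left out) to 2.17 (control replicate 2 left out). A filter of at least 10 counts in every library removed Pyy.

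Nts encodes neurotensin, the peptide of N cells, which slows motility and favours fat absorption (chr10:102481756-102490486, minus strand). Its counts were 52 and 12 in the controls, against 101 and 102 in the mimic libraries, and its normalized CPM was 1.36 and 0.387 against 3.23 and 2.87. The controls differed 3.50-fold from each other, which was more than the 2.11-fold step from the higher control to the lower mimic library. The fitted log2 fold change was 1.77 (SE 0.482, 95% interval 0.64 to 2.89), a 3.40-fold difference, with an adjusted p of 0.0887 from edgeR. It was 1.17 without control replicate 2 and 2.96 without control replicate 1.

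Cck encodes cholecystokinin, the I cell hormone that contracts the gallbladder and stimulates pancreatic enzyme release (chr9:121489824-121495694, minus strand). Its normalized CPM was 40.1 and 23.1 in the controls, against 26.1 and 24.7 in the mimic libraries. Both mimic libraries therefore lay between the controls, nearer to control replicate 2. This left a log2 fold change of -0.32 (SE 0.231, 95% interval -0.86 to 0.22, adjusted p = 0.433, edgeR). Its sign turned to 0.13 without control replicate 1.

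Gip encodes the glucose-dependent insulinotropic polypeptide of K cells (chr11:96024545-96030831, plus strand). The controls were nearly equal at 20.1 and 19.8 normalized CPM, and the mimic libraries lay on either side of them at 41.4 and 16.2. The SD was 17.8 over the 2 mimic libraries and 0.150 over the controls. The fit gave a log2 fold change of 0.53 (SE 0.364, 95% interval -0.32 to 1.38, adjusted p = 0.407, edgeR), and it was -0.29 without mimic replicate 3 and 1.06 without mimic replicate 4.

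Sct encodes secretin, which drives bicarbonate secretion from the pancreas (chr7:141278330-141279133, minus strand). It had 34 and 17 counts in the controls, against 51 and 53 in the mimic libraries, or 0.887 and 0.549 against 1.63 and 1.49 normalized CPM. Unlike Cck and Gip, its groups did not overlap. On the log2 scale the fold change was 1.10 (SE 0.343, 95% interval 0.30 to 1.90), a 2.14-fold difference, and edgeR's quasi-likelihood test gave it an adjusted p of 0.116. Without 1 library it ranged from 0.81 (control replicate 2 left out) to 1.49 (control replicate 1 left out).

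Sst encodes somatostatin, the D cell peptide that inhibits the release of other gut hormones (chr16:23889573-23890958, minus strand). It was nearly level in 3 libraries, at 3.94 and 4.07 normalized CPM in the controls and 3.96 in mimic replicate 3, and lower in mimic replicate 4 at 2.44. The fitted log2 fold change was -0.33 (SE 0.278, 95% interval -0.97 to 0.32, adjusted p = 0.505, edgeR). It was -0.70 without mimic replicate 3 and -0.01 without mimic replicate 4.

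Tac1 encodes the precursor of substance P and neurokinin A, which in the gut epithelium is made by enterochromaffin cells (chr6:7554879-7565834, plus strand). Its normalized CPM was 20.0 and 11.1 in the controls, against 13.1 and 14.0 in the mimic libraries, the same arrangement as for Cck. This left a log2 fold change of -0.21 (SE 0.256, 95% interval -0.80 to 0.39, adjusted p = 0.659, edgeR). Without control replicate 1 it was 0.28.

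The granins Chgb and Chga had fold changes of opposite sign, and neither passed the test. Chgb (chr2:132781278-132795079, plus strand) had 452 and 287 normalized CPM in the controls, against 323 and 324 in the mimic libraries, with both mimic libraries between the controls. Chga (chr12:102554969-102565028, plus strand), which carries the 7-base seed match shown above, had 40.6 and 33.3 in the controls, against 57.6 and 37.8 in the mimic libraries. Its mimic replicate 4 fell between the controls and its mimic replicate 3 above them. The fit gave a log2 fold change of -0.19 for Chgb (SE 0.195, 95% interval -0.65 to 0.26, adjusted p = 0.575) and 0.37 for Chga (SE 0.199, 95% interval -0.10 to 0.83, adjusted p = 0.296), both from edgeR's quasi-likelihood test. Without control replicate 1 the value of Chgb was 0.16, and the value of Chga was 0.04 without mimic replicate 3.

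The controls themselves differed in enteroendocrine mRNA, and this touched most of the 10 genes. Control replicate 1 was higher than control replicate 2 for 8 of the 10 (median ratio 1.60 in normalized CPM), with Pyy and Sst as the exceptions. All 18 tested transcription factor genes of enteroendocrine cells were also higher in control replicate 1 (median ratio 1.61), as were 79.4% of 63 tested genes in 6 enteroendocrine lists, while 50.9% of all tested genes were (median ratio 1.005). Paneth and tuft cell markers shared the pattern, with 5 of 6 and 5 of 5 tested genes higher in control replicate 1, whereas of the goblet cell markers 2 of 6 were (median ratio 0.876). The part of this difference in the fold changes above was not tested beyond leaving each library out. For the genes of epithelial region described below, the controls differed the other way. None of the 6 proximal genes (median ratio 0.576) and none of the 3 tested distal genes (0.55) was higher in control replicate 1.

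**Figure D3:**
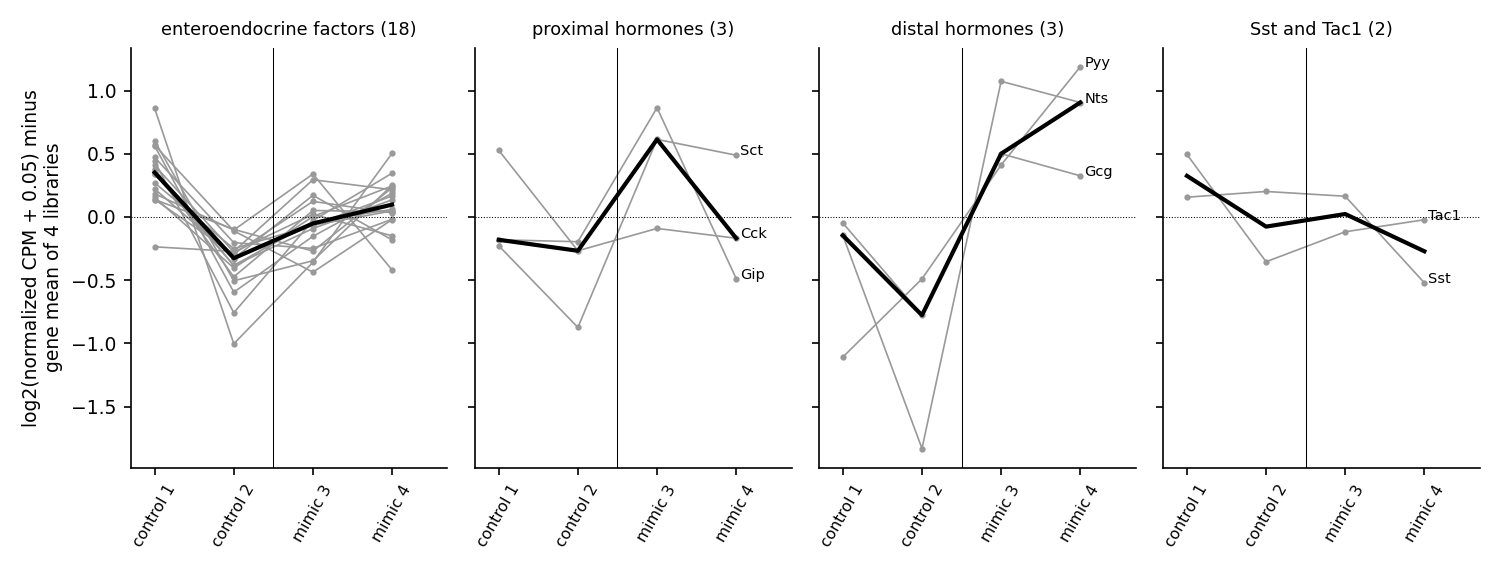
Log2 of normalized CPM plus 0.05, minus each gene's mean over the 4 libraries (y axis), for the tested enteroendocrine transcription factor genes and 3 sets of hormone genes. Grey lines join the values of 1 gene and the black line is the median: all 18 factors are higher in control 1 than in control 2, and the distal hormones have their highest values in the mimic libraries.

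Ratios within a library set hormones against another enteroendocrine mRNA of the same RNA sample. They were chosen after the values were seen and are given without a test. Gcg stood at 0.221 and 0.212 of the TPM of Chgb in the controls and at 0.440 and 0.395 with the mimic, so for Gcg the controls agreed more closely than in the levels themselves. Cck gave a similar ratio in every library, at 0.465 and 0.436 against 0.427 and 0.402, with both mimic libraries slightly below both controls. Tac1 stood at 0.135 and 0.116 against 0.126 and 0.131, and its groups overlapped. Sct was 0.0122 and 0.0119 of Chgb in the controls, against 0.0312 and 0.0272 in the mimic libraries. For Pyy the controls were farther apart in this ratio (0.00298 and 0.00778) than in level, and the mimic libraries stood at 0.0137 and 0.0245. For Nts the ratio was 0.00689 and 0.00308 in the controls and 0.0229 and 0.0203 in the mimic libraries. Gip and Sst also had controls that differed more in the ratio than in level, and Sst overlapped between groups at 0.0369 and 0.06 against 0.0517 and 0.032. The mean ratio to Chgb with the mimic was 1.93 times that of the controls for Gcg, 2.43 times for Sct, 3.54 times for Pyy and 4.33 times for Nts, but 0.920 times for Cck and 1.03 times for Tac1. Gip overlapped between groups in this ratio, at 0.219 and 0.334 against 0.619 and 0.248.

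With the summed TPM of the 19 enteroendocrine transcription factor genes in place of Chgb, the same 4 hormones had both mimic libraries above both controls. Gcg was 0.667 and 0.625 of that sum in the controls, against 1.25 and 1.02 in the mimic libraries. Both mimic libraries lay below both controls for Cck (1.404 and 1.285 against 1.213 and 1.038) and for Chgb (3.02 and 2.95 against 2.84 and 2.58). The share of all genes with groups apart was not counted for these ratios or for those to Chgb, so these arrangements have no background to be read against. Set directly against each other, Gcg was 0.475 and 0.486 of Cck in the controls, against 1.03 and 0.983 in the mimic libraries. Against Gip, the other abundant proximal hormone, Gcg overlapped between the groups, with a ratio of 1.01 and 0.635 in the controls and of 0.71 and 1.59 in the mimic libraries.

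**Figure D4:**
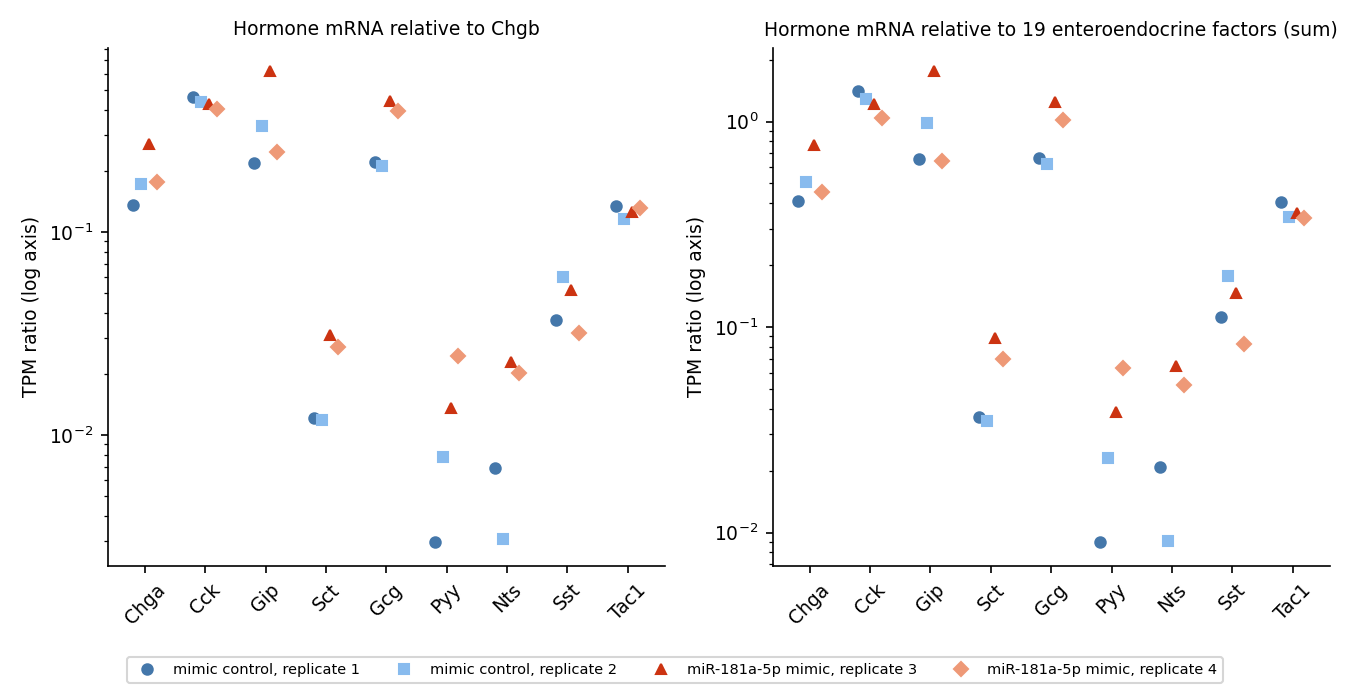
TPM of each hormone and Chga divided by the TPM of Chgb (left) or by the summed TPM of 19 enteroendocrine transcription factor genes (right) in each library, on log axes with 1 point per library. For Gcg the ratio to Chgb is 0.221 and 0.212 in the controls (blue) and 0.440 and 0.395 with the mimic (red), whereas the 4 points of Cck and of Tac1 lie close together.

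Summed over the 8 hormones, mRNA came to 221 and 153 TPM in the controls and 251 and 203 TPM with the mimic, and these ranges overlapped. The distal hormones supplied 21.0% and 18.9% of that sum in the controls, against 27.5% and 34.4% in the mimic libraries, which is 19.9% ± 1.51 (SD, n = 2) against 30.9% ± 4.83 (SD, n = 2). The proximal hormones supplied 63.4% and 66.2% in the controls, against 62.2% and 52.9% in the mimic libraries. Most of the distal sum was Gcg. In the proximal sum Cck and Gip dominated, and of the 3 Gip alone differed more than 2-fold between the mimic libraries.

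Other genes of enteroendocrine cells gave no call in the quasi-likelihood test. Across 6 lists (transcription factors, prohormone processing, granule exocytosis, enterochromaffin genes, nutrient sensing and other gut peptides) 63 of 83 genes were tested, 0 were called higher and 0 lower, and at an unadjusted p under 0.05 there were 2 and 3, where 11.8% of all tested genes were higher and 12.7% lower. Their median log2 fold change was -0.03, with 28 genes above 0 and 35 below.

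Among the transcription factor genes (18 of 19 tested, median -0.04), Tox3 and Neurog3 were the most abundant. Tox3 stood at 31.8 and 21.8 normalized CPM in the controls, against 26.0 and 30.6 in the mimic libraries, with a log2 fold change of 0.08 (SE 0.185, edgeR). Neurog3, the factor that commits progenitors to the enteroendocrine fate, had 15.6 and 9.75 against 7.76 and 10.4 and a log2 fold change of -0.49 (SE 0.252, adjusted p = 0.277, edgeR). The groups of both genes overlapped. Neurog3 was called lower without control replicate 2 (-0.78, adjusted p = 0.0449) and stood at -0.11 without control replicate 1.

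Prohormone processing, the cutting and amidation of hormone precursors, had 11 of 13 genes tested and a median of 0.09. Its leading genes were the amidating enzyme Pam (log2 fold change -0.22, SE 0.145) and carboxypeptidase E, Cpe (0.09, SE 0.248). Of the granule exocytosis genes 16 of 17 were tested with a median of -0.11, led by the vesicle SNARE gene Vamp2 (-0.13, SE 0.117) and the Rab effector gene Rph3al (-0.19, SE 0.167). In the enterochromaffin list, which covers serotonin synthesis and storage, 7 of 8 were tested with a median of 0.22, led by Ddc (0.25, SE 0.17) and Tph1 (-0.40, SE 0.265), which was called lower without control replicate 2 (-0.76, adjusted p = 0.0201).

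The nutrient sensing list had 8 of 13 genes tested (median 0.14), led by the peptone-responsive receptor gene Lpar5 (0.21, SE 0.131) and the fatty acid receptor gene Ffar4 (0.07, SE 0.351). Of 13 other gut peptide genes 3 were tested (median -0.08), and ghrelin, Ghrl, was the most abundant at 26.4 TPM with a log2 fold change of -0.08 (SE 0.185). Ucn3 followed at 2.00 TPM (0.12, SE 0.421). Receptors for the 10 genes' peptides were sparse. Of 19 receptor genes 4 were tested and 0 called, 6 had 0 counts in every library, and the 2 most abundant, Gipr (0.09, SE 0.352) and Sstr2 (-0.05, SE 0.36), averaged 0.883 and 0.37 TPM.

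The last list held factors and Notch pathway genes of the choice between absorptive and secretory fates, some of which, such as Gfi1 and Spdef, act in the goblet and Paneth branch. All 9 were tested, 0 were called in either direction, and the median was 0.23. The most abundant were Sox4 (log2 fold change 0.17, SE 0.114) and the Notch target Hes1 (0.23, SE 0.153). At an unadjusted p under 0.05 in edgeR 4 were higher and 0 lower, beside 11.8% and 12.7% of all genes, and those 4, named after their values were seen, were Gfi1 (1.18, SE 0.293), Spdef (0.72, SE 0.17), Atoh1 (0.62, SE 0.203) and Foxa1 (0.44, SE 0.11).

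Other secretory lineages carried no call in the same test. The 6 goblet cell genes had a median of -0.14, with Tff3 (340 TPM) and Fcgbp (218 TPM) in front, and the 6 Paneth cell genes a median of -0.64, with Itln1 (465 TPM) and Defa24 (449 TPM) in front. Of 6 tuft cell genes 5 were tested, with a median of -0.20, and Trpm5 and Pou2f3 led them at 1.86 and 1.34 TPM.

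Because hormones differ along the gut, genes of epithelial region were set beside them. Of 6 proximal genes, 3 fell and 0 rose in edgeR's quasi-likelihood test, beside 2.17% and 1.21% of all genes. The list was chosen with earlier results of these data known, so this count is no test of enrichment. Pdx1, a duodenal homeobox factor, had 8.81 and 13.3 normalized CPM in the controls, against 1.31 and 1.07 in the mimic libraries (log2 fold change -3.22, SE 0.28, adjusted p = 0.00517). Onecut2, a homeobox factor of the proximal SI, had 248 and 276 against 119 and 112 (log2 fold change -1.18, SE 0.106, adjusted p = 0.00528). The iron exporter gene Slc40a1 had 51.0 and 121 against 0.224 and 1.38 (log2 fold change -6.69, SE 0.629, adjusted p = 0.00568). In all 3 the mimic libraries lay far below both controls. With limma on unfiltered log2(TPM + 1) none of the 3 was called (adjusted p = 0.444, 0.284 and 0.449), and with limma on log2(TPM + 0.1) Onecut2 was not (adjusted p = 0.0522).

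The most abundant genes of that list, Gata4 (log2 fold change -0.19, SE 0.101, adjusted p = 0.289) and Cybrd1 (-2.09, SE 0.496, adjusted p = 0.0665), did not pass the test. Both had both mimic libraries below both controls, an arrangement found in 5064 of 17155 tested genes. Cybrd1 was called lower by edgeR's exact test (adjusted p = 0.001), by the likelihood-ratio test (0.000889) and by the quasi-likelihood test without a filter on low counts. It was not called by DESeq2 (adjusted p = 0.121), or by limma on log2(TPM + 1), filtered (0.162) or not (0.844), or on log2(TPM + 0.1) (0.174). Nor was it called by the quasi-likelihood test with at least 10 counts in every library (adjusted p = 0.061). Its normalized CPM was 283 and 607 in the controls, against 55.3 and 153 in the mimic libraries. The log2 fold change of Cybrd1 ran from -3.00 to -1.43 without 1 library. Lct, the lactase gene, named after its values were seen, leaned the other way (0.69, SE 0.283, adjusted p = 0.191). Of 5 distal genes 3 were tested and 0 were called in either direction. At an unadjusted p under 0.05 in edgeR 1 was higher, the bile acid transporter gene Slc10a2, named after its values were seen. Its log2 fold change was 1.18 (SE 0.388, adjusted p = 0.126, edgeR). The normalized CPM of Slc10a2 was 2.608 and 2.775 in the controls, 3.608 in mimic replicate 3 and 8.568 in mimic replicate 4. Slc51b and Slc51a, the most abundant distal genes, had log2 fold changes of -0.01 (SE 0.317) and 0.45 (SE 0.318), and the ileal bile acid binding gene Fabp6 had at most 1 count in any library. Called genes of region thus stood beside hormones that were not called, and whether the values of the 2 go together was not tested.

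**Figure D5:**
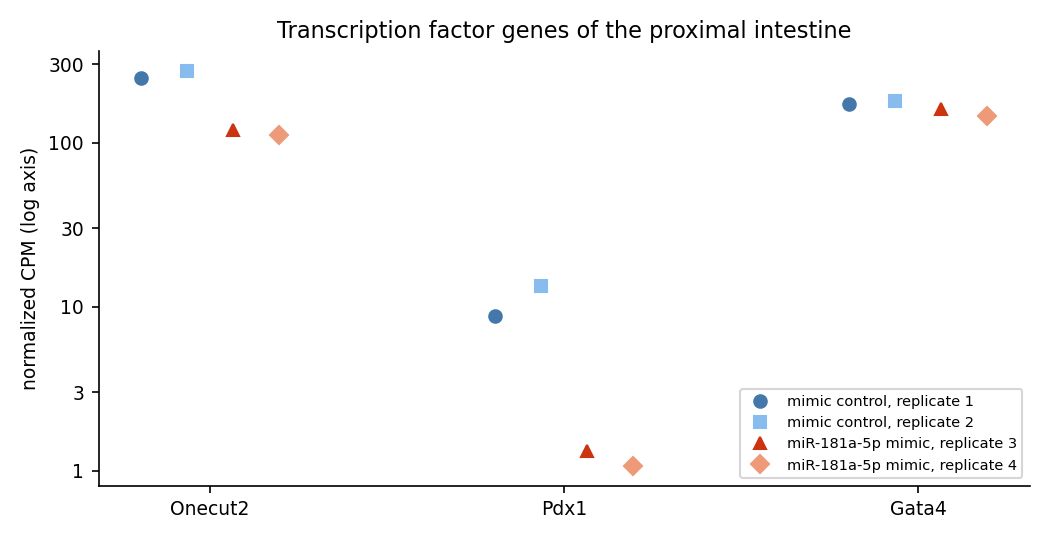
Normalized CPM (y axis, log scale) of 3 transcription factor genes of the proximal intestine, with 1 point per library. Pdx1 and Onecut2 are lower in both mimic libraries (red) than in both controls (blue), with log2 fold changes of -3.22 and -1.18, and Gata4 differs less (-0.19).

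The promoters of a pair of proximal and a pair of distal hormone genes are shown because several of these region genes encode GATA or homeobox factors. Each is the 250 bases before the start of the RefSeq transcript (GRCm38.p6), 5′ to 3′ in the direction of the gene. Capitals mark 2 strings on either strand. The first is AGATAA, of the kind that zinc finger factors such as Gata4 recognise, and the second is the homeobox core TAAT. Gip lies at chr11:96024295-96024544 (plus strand), Cck at chr9:121495695-121495944 (minus strand), Gcg at chr2:62483654-62483903 (minus strand) and Pyy, for the first of 2 RefSeq starts, at chr11:102107833-102108082 (minus strand).
Gip: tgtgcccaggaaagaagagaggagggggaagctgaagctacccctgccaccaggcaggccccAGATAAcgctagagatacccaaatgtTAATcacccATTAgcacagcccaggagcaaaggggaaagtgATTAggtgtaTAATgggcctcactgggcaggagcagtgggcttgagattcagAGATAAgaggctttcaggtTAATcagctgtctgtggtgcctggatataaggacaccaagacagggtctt
Cck: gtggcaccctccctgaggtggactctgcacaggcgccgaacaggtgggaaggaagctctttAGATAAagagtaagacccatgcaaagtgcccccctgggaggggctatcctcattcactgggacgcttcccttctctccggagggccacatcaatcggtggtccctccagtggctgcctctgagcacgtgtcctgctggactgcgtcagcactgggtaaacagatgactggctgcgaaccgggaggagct
Gcg: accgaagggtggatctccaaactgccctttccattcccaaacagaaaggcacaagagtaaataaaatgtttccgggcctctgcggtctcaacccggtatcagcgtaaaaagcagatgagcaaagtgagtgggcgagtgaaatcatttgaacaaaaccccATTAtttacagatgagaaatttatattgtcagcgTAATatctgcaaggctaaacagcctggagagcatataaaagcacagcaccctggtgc
Pyy: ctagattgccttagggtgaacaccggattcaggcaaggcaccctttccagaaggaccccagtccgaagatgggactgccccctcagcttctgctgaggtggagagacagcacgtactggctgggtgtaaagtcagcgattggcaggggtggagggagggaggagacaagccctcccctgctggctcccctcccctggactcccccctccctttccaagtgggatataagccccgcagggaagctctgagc
The Gip window held 2 AGATAA and 5 TAAT strings, the Cck window 1 and 0, the Gcg window 0 and 2, and the Pyy window 0 and 0. For AGATAA the remaining proximal and distal hormones had the opposite order, since the Sct window, not printed, held 0 AGATAA and 1 TAAT, and the Nts window 1 of each. Of 32851 promoters of the same length, 9.99% held AGATAA and 54.9% held TAAT. A further 3 strings were searched on both strands, CANNTG (the E-box, in 66.2% of promoters), TATAAA (12.4%) and TGACGT (6.47%). CANNTG occurred 2 times in the Gip window, 3 times in those of Cck and Gcg and 1 time in that of Pyy, TATAAA 2 times in the Gcg window and in none of the other 3, and TGACGT in none of the 4. These are matches of letters and say nothing of binding.

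Genes with the most similar pattern were sought for Nts and Gcg, the pair with the smallest p among members with at least 10 counts in every library. Likeness was the root mean square difference of log2 normalized CPM over 4 libraries, with a fixed offset added before the log2 and each gene centred. It was sought among 16895 genes with a mean of at least 10 counts. The offset shrinks differences at low levels such as those of Nts, so its distances are smaller than on plain log2 values. Nearest to Gcg were Galnt5 (0.0562), Cpm (0.0725) and Evl (0.0766), and nearest to Nts were Gm45104 (0.076), Ano1 (0.171) and Tifa (0.173). With 4 libraries these names are a description only.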

How the data were processed

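RNA-seq libraries from 2 mimic control and 2 miR-181a-5p mimic cultures of mouse SI organoids were analysed. Single reads (100 cycles) had been trimmed by the authors with Trimmomatic and assigned to GRCm38 transcripts with RSEM. The authors deposited 2 measures for each gene, an unnormalized expected count and a TPM value. The labels name poly(A) selection and the supplemental methods ribosomal RNA depletion, and the strand setting and transcript release are not given in the sources used here. A further 3 columns of each file matched no sample and were not used.

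Gene symbols were matched by identifier (GENCODE release 21 for mouse) for 55141 of 55487 genes, and no other annotated gene overlapped any of the 10 genes. Rounded expected counts entered edgeR's quasi-likelihood test (version 4.0.16, run in R 4.3.3) after filterByExpr and TMM scaling, through estimateDisp, glmQLFit and glmQLFTest. The p-values of 17155 genes were adjusted by the Benjamini-Hochberg method. A gene was called at an adjusted p under 0.05, and the study also asked for a 2-fold change, which Gcg did not reach. Intervals cover 95%, and the common biological coefficient of variation was 0.130. The fit was tested on simulated counts with planted changes.

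The settings varied were the test (exact and likelihood-ratio tests of edgeR, and DESeq2 1.42.0), the scaling (RLE, or none) and the filter (none, or 10 counts or more in every library). In addition, limma 3.58.1 was run on log2(TPM + 1), with a filter of 1 TPM in any 2 libraries or with none, and with a pseudocount of 0.1, and every library was left out in turn. Fold changes on the log2(TPM + 1) scale understate changes of low genes. The 10 genes and all other lists were chosen with earlier results of these data known. Besides the 10 genes, the text names from each list every called gene and the 2 with the highest mean TPM among tested genes, plus the genes with the nearest pattern to a pair of members. A further 2 listed genes are not reported here. Plots were drawn with matplotlib 3.10.9.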

Additional observations from a re-analysis of the deposited data

How the results depend on the processing

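Of 139 values of the 10 genes under 14 alternatives, 113 kept direction and side of the threshold, 22 passed it and 4 turned sign. The number of the 10 genes called was 4 with edgeR's exact test, 4 with its likelihood-ratio test, 2 with DESeq2, 6 without a filter on low counts and 0 with the other normalizations, with at least 10 counts in every library (9 genes tested) and with limma on TPM. Without 1 library it ranged from 0 to 2. When a library was left out, its group had a single library, which was assumed to vary like the other group. The median log2 fold change of distal hormones was 1.09 with limma on log2(TPM + 1), filtered or not, and ranged from 1.17 to 1.69 without 1 library. It was 1.26 with at least 10 counts in every library, a filter that removed Pyy. The median of proximal hormones ranged from -0.29 to 1.06 without 1 library. Calls over the other lists numbered 4 and became 15 (exact test), 17 (likelihood-ratio test), 14 (DESeq2), 26 (no filter), 2 (limma on log2(TPM + 0.1)) and 1 (limma unfiltered), and ranged from 7 to 18 without 1 library. Over all tested genes the share called higher was 1.21% in the main fit. It was 4.44% (exact test), 4.62% (likelihood-ratio test), 4.18% (DESeq2) and 4.35% (no filter). The share called lower, the direction of the 4 list calls of the main fit, was not counted for those settings. The list calls are therefore not read as a result about the lists. The causes were not tested. Values that turned sign without 1 library ranged from -0.48 to 0.17 for Chgb, -0.65 to 0.13 for Cck, -0.56 to 0.28 for Tac1 and -0.29 to 1.06 for Gip. Among the other genes the ranges were -0.76 to 0.10 for Tph1, -0.24 to 0.11 for Ghrl, -0.60 to 0.62 for Ucn3, -0.16 to 0.37 for Tox3, -0.24 to 0.53 for Cpe, -0.37 to 0.02 for Rph3al, -0.28 to 0.53 for Ffar4, -0.23 to 0.54 for Gipr, -0.39 to 0.48 for Slc51b, -0.003 to 0.472 for Ddc and -0.133 to 0.046 for Sstr2. Slc51b was also 0.004 with DESeq2, 0.016 without normalization factors, 0.081 with limma on log2(TPM + 1), filtered or not, and 0.102 on log2(TPM + 0.1). With 2 libraries per group the spread within groups limits every value, more in the controls for Chgb, Cck, Tac1, Gcg, Sct and Nts and more in the mimic libraries for Gip, Sst and Chga, and for Pyy, Nts and Sct so do low counts. No paired analysis was possible because the groups share no replicate number.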
